A study of Mus musculus with 4 samples.

Results

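The 9 genes described here make up the IL-33 and type 2 immunity axis: the alarmin Il33, its receptor genes Il1rl1 and Il1rap, the second alarmin Tslp, the effector genes Areg, Il13, Il5 and Il4, and the transcription factor gene Gata3. They were taken by symbol from the feature list, 9 of 31054 features. The choice was made with their levels and with the Il33 difference in alveolar type 2 (AT2) cells known, so those values are descriptions and carry no test. The study profiled lung cells of male C57BL/6 mice, aged 19 months at the start, that received for 1 month either BPTES, an inhibitor of the glutamine-degrading enzyme glutaminase 1, or its solvent DMSO. Each treatment had 2 libraries, BPTES replicates 1 and 2 and DMSO replicates 1 and 2. No genetic change is named for either group, and both went through the same Liberase digestion. For each library 20000 cells without the leukocyte surface protein CD45 were mixed with 9000 cells carrying it, so cell shares are given within the CD45-positive or the CD45-negative cells. Whether the libraries of a treatment came from separate animals is not stated, so p-values measure only the spread between these libraries.

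IL-33 is a nuclear cytokine of barrier and stromal cells that is set free on tissue damage. It binds ST2, the product of Il1rl1, which signals together with the accessory chain encoded by Il1rap. In lung, group 2 innate lymphoid cells, a subset of regulatory T cells, mast cells and basophils are its best known receivers. Group 2 innate lymphoid cells depend on GATA3 and answer with IL-5, IL-13 and the growth factor amphiregulin, the product of Areg. TSLP is an alarmin of epithelial and stromal cells that acts on some of the same receivers.

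In the mouse build GRCm38 (mm10), Il33 spans chr19:29925114-29960718 on the plus strand and Il1rl1 spans chr1:40429570-40465415, also plus. Il4 (chr11:53602982-53618669, minus), Il13 (chr11:53631324-53634702, minus) and Il5 (chr11:53720794-53725106, plus) are neighbours, with Rad50 between Il13 and Il5 and 12654 bases between the ends of Il4 and Il13. Il1rap, Il5 and Gata3 overlap an antisense gene model, and Gata3 overlaps 9230102O04Rik on its own strand, so reads in those stretches could have been assigned to either model.

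The windows below are the 250 bases before annotated start sites of the alarmin, its receptor and the type 2 cytokines, the genes whose levels separate sources from receivers. They were read from RefSeq on GRCm38.p6 for 8 of the 9 genes. Tslp was left out of this search and of the positions and overlaps above. Each is written 5′ to 3′ on the gene's own strand, and capitals mark matches to TATAAA or to a GATA-type motif (AGATAA and AGATAG, and likewise TGATAA and TGATAG), both searched on both strands. Il33, Il1rl1 and Il4 each have 2 annotated start sites, and 3′ counting does not tell which was used.
Il33 start site 1, chr19:29924863-29925112, plus: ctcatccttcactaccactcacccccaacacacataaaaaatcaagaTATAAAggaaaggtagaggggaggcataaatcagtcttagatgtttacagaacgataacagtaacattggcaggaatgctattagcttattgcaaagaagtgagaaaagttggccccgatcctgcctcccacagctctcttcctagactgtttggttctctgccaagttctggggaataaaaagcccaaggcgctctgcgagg
Il33 start site 2, chr19:29945540-29945789, plus: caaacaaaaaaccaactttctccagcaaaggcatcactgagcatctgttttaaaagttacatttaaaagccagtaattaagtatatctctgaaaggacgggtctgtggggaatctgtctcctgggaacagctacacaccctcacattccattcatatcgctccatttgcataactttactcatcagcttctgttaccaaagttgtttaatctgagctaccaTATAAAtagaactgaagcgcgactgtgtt
Il1rl1 start site 1, chr1:40429320-40429569, plus: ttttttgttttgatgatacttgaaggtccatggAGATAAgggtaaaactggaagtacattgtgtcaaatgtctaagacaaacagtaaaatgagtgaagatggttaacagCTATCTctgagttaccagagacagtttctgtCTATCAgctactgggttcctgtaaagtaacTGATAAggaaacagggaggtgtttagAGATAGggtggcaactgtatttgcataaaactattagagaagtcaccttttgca
Il1rl1 start site 2, chr1:40439379-40439628, plus: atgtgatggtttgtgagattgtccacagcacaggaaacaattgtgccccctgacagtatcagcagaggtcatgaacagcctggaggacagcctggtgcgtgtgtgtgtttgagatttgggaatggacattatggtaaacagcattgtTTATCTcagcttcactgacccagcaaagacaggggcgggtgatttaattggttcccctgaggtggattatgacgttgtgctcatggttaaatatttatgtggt
Il13, chr11:53634703-53634952, minus: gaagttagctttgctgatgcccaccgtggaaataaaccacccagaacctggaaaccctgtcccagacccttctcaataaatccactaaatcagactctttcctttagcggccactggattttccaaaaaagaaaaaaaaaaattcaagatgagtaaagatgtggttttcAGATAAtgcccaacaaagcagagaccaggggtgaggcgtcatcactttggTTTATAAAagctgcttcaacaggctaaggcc
Il5, chr11:53720544-53720793, plus: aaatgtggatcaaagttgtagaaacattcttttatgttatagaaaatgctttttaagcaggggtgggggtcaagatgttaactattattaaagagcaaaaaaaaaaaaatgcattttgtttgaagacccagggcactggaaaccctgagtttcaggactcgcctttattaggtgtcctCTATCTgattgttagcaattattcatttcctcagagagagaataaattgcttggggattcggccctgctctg
Il4 start site 1, chr11:53617339-53617588, minus: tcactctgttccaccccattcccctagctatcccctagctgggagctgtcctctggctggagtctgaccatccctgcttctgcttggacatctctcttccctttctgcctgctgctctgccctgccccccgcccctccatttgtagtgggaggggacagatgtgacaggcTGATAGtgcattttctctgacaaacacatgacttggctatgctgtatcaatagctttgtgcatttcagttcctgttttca
Both Il33 windows held TATAAA and neither held a GATA-type match. The window of the first Il1rl1 start site held 5 GATA-type matches and that of the second held 1. Il13, Il5 and the first Il4 start site held 1 GATA-type match each, and the second Il4 window (chr11:53618666-53618915, minus, not printed) held 0. Start sites are numbered along the chromosome, so the second Il4 window lies at the 5′ end of this minus-strand gene and the first lies inside it. The windows of Areg, Il1rap and Gata3, also not printed, held 0 GATA-type matches. Of 32851 windows of this length, 26.5% held a GATA-type match and 12.4% held TATAAA. These are matches of letters, not sites bound by a factor. A search for an AP-1-type motif (TGANTCA, in 6.75% of windows) and an NKX2-type motif (TNAAGTG, in 10.1%) matched no window of the 8 genes.

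The 4 libraries held 74057 barcodes, of which 63895 cells were kept, 14407 to 18860 per library with a median of 13995 to 15856.5 UMIs (distinct RNA molecules counted). Clusters were named from marker lists, with the 9 genes and a list of 44 pathway genes left out of the clustering. This gave 29 named classes, each called by its nearest type with the ending "-like", while 14010 cells (21.9%) stayed unnamed. AT2-like cells were a single cluster of 1164 cells in which Sftpc, Sftpb and Slc34a2, coding for surfactant proteins and a phosphate transporter of AT2 cells, were detected in 100% of cells. Levels are given as CPM, the UMIs of a gene scaled to a fixed total of UMIs in its class, and are compared between classes, not between genes. Cd3e had a UMI in 1.29% of AT2-like cells and Ptprc, which encodes CD45, in 12.8%, while the B cell gene Cd79b had one in 52.2%, at 20.5 CPM against 45.3 CPM in all other cells. Barcodes with at least 2 UMIs of T and B cell marker genes made up 109 of 393 and 112 of 404 AT2-like cells with BPTES and 48 of 122 and 74 of 245 with DMSO. Regulatory T-like cells (142) carried Foxp3 in 91.5% of cells, and group 2 innate lymphoid-like cells (43) carried Rora in 100% and Arg1 in 86.0%. Of the T cell genes in the latter class, Cd3e had 0 UMIs, Trac was seen in 4.65% of cells, Cd3d in 6.98% and Cd3g in 25.6%, at 68.8 CPM against 33.2 CPM in all other cells. The innate lymphoid marker Nmur1 was seen in 13.95% of them. Between 75 and 121 barcode sequences were shared by any pair of libraries. DMSO replicate 1 stood apart in several small populations, holding 224 of the mesothelial-like cells against 5 to 67 in the other libraries.

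Il33 was highest in AT2-like cells, then in mesothelial-like, adventitial fibroblast-like and lymphatic endothelial-like cells. AT2-like cells had a median of 432 CPM over the 4 libraries (321 to 548) and held 60.9% of all Il33 UMIs. Adventitial fibroblast-like cells, the fibroblasts around large vessels and airways, followed with a median of 164 CPM (134 to 194) and held 23.1%. Lymphatic endothelial-like cells had 70.7 CPM (54.5 to 102). None of these 3 ranges overlapped the next. Peribronchial fibroblast-like cells (27.3 CPM) and venous endothelial-like cells (24.6 CPM) came next with overlapping ranges, and alveolar fibroblast-like cells had 5.95 CPM (5.21 to 9.21).

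Within the fibroblasts Il33 was uneven. Of the 2 adventitial clusters, the one led by Scara5 and Ccl11 had 154 to 221 CPM in the 4 libraries and the one led by Adh7 and Apod had 90.8 to 127 CPM. Of the 2 alveolar fibroblast clusters, the smaller had 13.8 to 19.5 CPM and the larger under 1 CPM in every library (0.437 to 0.908). Mesothelial-like cells, which line the pleura, reached 199 CPM over 313 pooled cells, 175 CPM in the library with 224 of them and 348 CPM in the library with 67. Its range over the libraries (175 to 348 CPM) overlapped those of AT2-like and adventitial fibroblast-like cells, and in DMSO replicate 2 it was above the 334 CPM of AT2-like cells there. That class held 5 cells in BPTES replicate 1 and was not fitted.

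**Figure D1:**
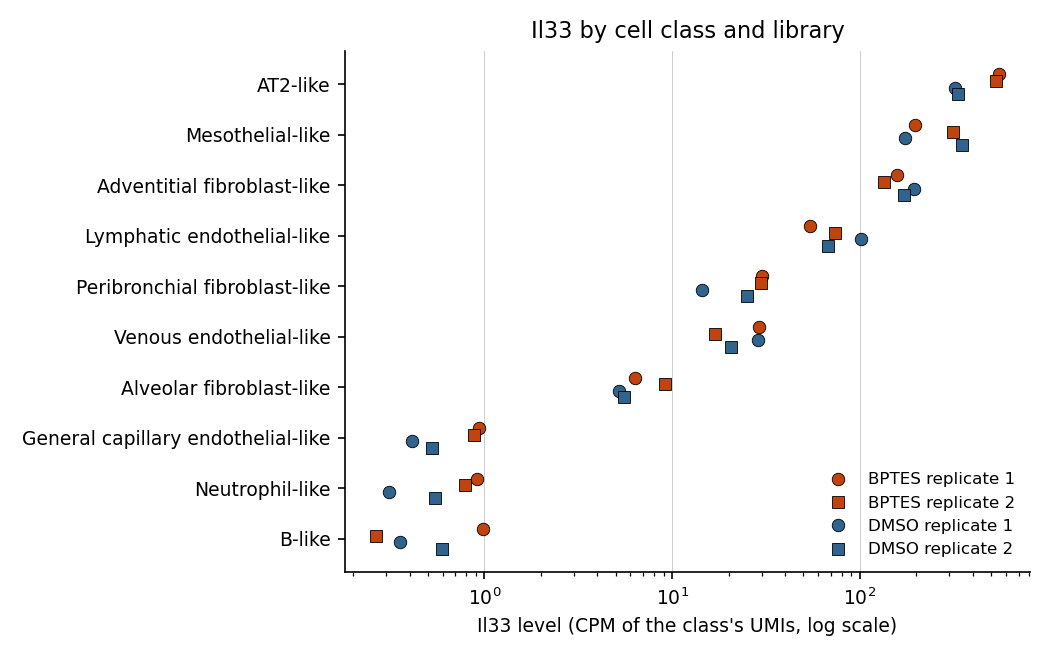
Il33 level (CPM, log axis) in 10 cell classes, one point per library, coloured by treatment. AT2-like cells lie at 321 to 548 CPM and adventitial fibroblast-like cells at 134 to 194 CPM. General capillary endothelial-like, neutrophil-like and B-like cells lie under 1 CPM.

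Tslp had its highest levels in stromal classes low in Il33. Pericyte-like cells, which wrap capillaries, had the highest median (82.2 CPM, 60.9 to 99.1), followed without overlap by alveolar fibroblast-like cells (46.0 CPM, 43.7 to 49.0). Smooth muscle-like cells (35.5 CPM, 26.3 to 79.0) overlapped both neighbours in the order, and adventitial fibroblast-like cells had 24.7 CPM (18.6 to 33.4). Because alveolar fibroblast-like cells were numerous (11288), they held 75.7% of all Tslp UMIs. AT2-like cells had 13 Tslp UMIs in all, or 0.254 CPM.

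The receptor gene Il1rl1 was concentrated in small leukocyte populations. Group 2 innate lymphoid-like cells had 1102 CPM on pooled counts, with a UMI in 41 of 43 cells, and held 20.5% of all Il1rl1 UMIs. Regulatory T-like cells had a median of 416 CPM (180 to 515) and held 22.6%. Conventional dendritic 2-like cells, a dendritic type that primes helper T cells, had 34.3 CPM (27.2 to 48.7) and held 23.8%. The leading genes of that cluster held 3 markers of this type and 2 of plasmacytoid dendritic cells (Siglech and Ccr9). It may therefore mix dendritic types. Conventional CD4 T-like cells followed at 10.9 to 48.5 CPM, overlapping the dendritic cells.

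The accessory chain gene Il1rap, which the receptors for IL-1 also use, was spread far more widely. It was high in neutrophil-like cells (median 1024 CPM, 872 to 1144, in 91.3% of cells). Peribronchial fibroblast-like cells had 94.9 CPM (77.4 to 134) and alveolar fibroblast-like cells 73.8 CPM (70.9 to 76.0). In group 2 innate lymphoid-like cells it had 18.9 CPM and a UMI in 6 of 43 cells. B-like cells, with 16.2 to 19.0 CPM, were at a similar level.

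The type 2 cytokine genes were rare. All 4 libraries together held 122 UMIs of Il13, 317 of Il5 and 527 of Il4. Group 2 innate lymphoid-like cells held 130 of the Il5 UMIs (41.0%), in 13 cells, which comes to 224 CPM (exact Poisson interval 187 to 266, counting error only). Of these, 125 UMIs and 11 cells were from DMSO replicate 1, so the level rests on that library. All 13 cells with Il5 also had Il1rl1. The same class had 10 UMIs of Il13 in 3 cells and 21 of Il4 in 12 cells. Single cells weighed heavily: the 5 highest cells held 42.6% of all Il13 UMIs, 35.3% of Il5 and 22.2% of Il4.

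In all, 324 cells had a UMI of Il4, and general capillary endothelial-like cells stood at 0.264 to 0.570 CPM in the 4 libraries. Its level was high in 2 further populations. The first was an unnamed lymphoid cluster of 107 cells with 53.1 CPM (exact Poisson interval 42.4 to 65.5), led by Atp8a2, Mmp9 and Il4, with a UMI in 39 cells and in every library (39.0, 69.2, 51.8 and 48.1 CPM). That cluster had no UMI of Il1rl1, Il5 or Il13. The second was a handful of basophils. No cluster earned that name, so barcodes of CD45-positive clusters with UMIs of at least 3 of 8 basophil markers were taken. They numbered 1, 0, 4 and 2 in the libraries, held 77 Il4 and 23 Il13 UMIs and had 1 UMI of Il1rl1. Over all clusters 17 barcodes met this rule, with 100 Il4, 35 Il13 and 46 Il1rl1 UMIs. Of these, 33 Il1rl1 UMIs were in 1 barcode and 22 Il4 and 11 Il13 UMIs in another, both of the unnamed cluster 12 in DMSO replicate 1. Among the 7 in CD45-positive clusters, 1 barcode of DMSO replicate 1 had 57 Il4 UMIs and another of that library had 22 of Il13. Those of the 7 from cluster 27, an unnamed cluster, had 7 or 8 of the markers. The others, from conventional dendritic 1-like cells, had 3. Mast cell markers gave no barcode among the CD45-positive clusters, which allows a share of up to 0.0525 to 0.0707% of those cells. Over all clusters 7 barcodes had 3 or more of them, 5 in DMSO replicate 1 and 2 in DMSO replicate 2, with 40 UMIs of Il1rl1. All 40 were in 4 barcodes of cluster 12, among them the barcode with 33 named above. These 4 also met the basophil rule, so their UMIs are counted in the 46 as well. They had 5 or 6 of the mast cell markers and no UMI of the basophil marker Mcpt8.

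Areg had both epithelial and lymphocyte sources. AT2-like cells held 41.8% of its UMIs (median 203 CPM, 112 to 259) and ciliated-like cells, the beating cells of the airway, held 18.2% (320 CPM, 179 to 464). Regulatory T-like cells were higher (median 675 CPM, 548 to 888). Group 2 innate lymphoid-like cells had 1015 CPM pooled, from 1111 and 900.4 CPM in the DMSO libraries and 259 and 284 CPM in the 1 and 2 cells of the BPTES libraries. B-like cells had under 1 CPM (0.237 to 0.346), and AT2 markers stood at 147 to 427 CPM in them, a measure of free RNA taken up by droplets. The part of free RNA in their Areg was not tested. In AT2-like cells the AT2 markers summed to 207566 to 214397 CPM. These markers were higher in both BPTES libraries, at 427 and 337 against 147 and 260 CPM in B-like cells and at 440 and 328 against 161 and 274 CPM in general capillary endothelial-like cells.

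Gata3 marked group 2 innate lymphoid-like cells (1058 CPM pooled) and regulatory T-like cells (median 256 CPM, 215 to 295). Conventional CD4 T-like cells (134 CPM, 113 to 158) and venous endothelial-like cells (84.6 CPM, 65.2 to 88.6) followed. General capillary endothelial-like cells, with 60.4 CPM (43.4 to 65.4), held 37.2% of all Gata3 UMIs because there were 11193 of them.

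Receptor and effector genes met in the same receivers. Of 142 regulatory T-like cells, 58 had a UMI of Il1rl1. Their pooled Areg level was 1066 CPM, against 388 CPM in the 84 cells without one, and Gata3 stood at 404 against 133 CPM. Areg was higher in the cells with Il1rl1 in each of the 4 libraries, by the widest margin in BPTES replicate 1 (1593 against 179 CPM) and the narrowest in DMSO replicate 2 (718 against 476 CPM). The cells with Il1rl1 were somewhat deeper (median 12974.5 against 11626.5 UMIs). Of the 43 group 2 innate lymphoid-like cells, 37 had Areg, 38 had Gata3 and 6 had both Il1rl1 and Il1rap. The low count of Il1rap there does not show that the chain was absent.

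**Figure D2:**
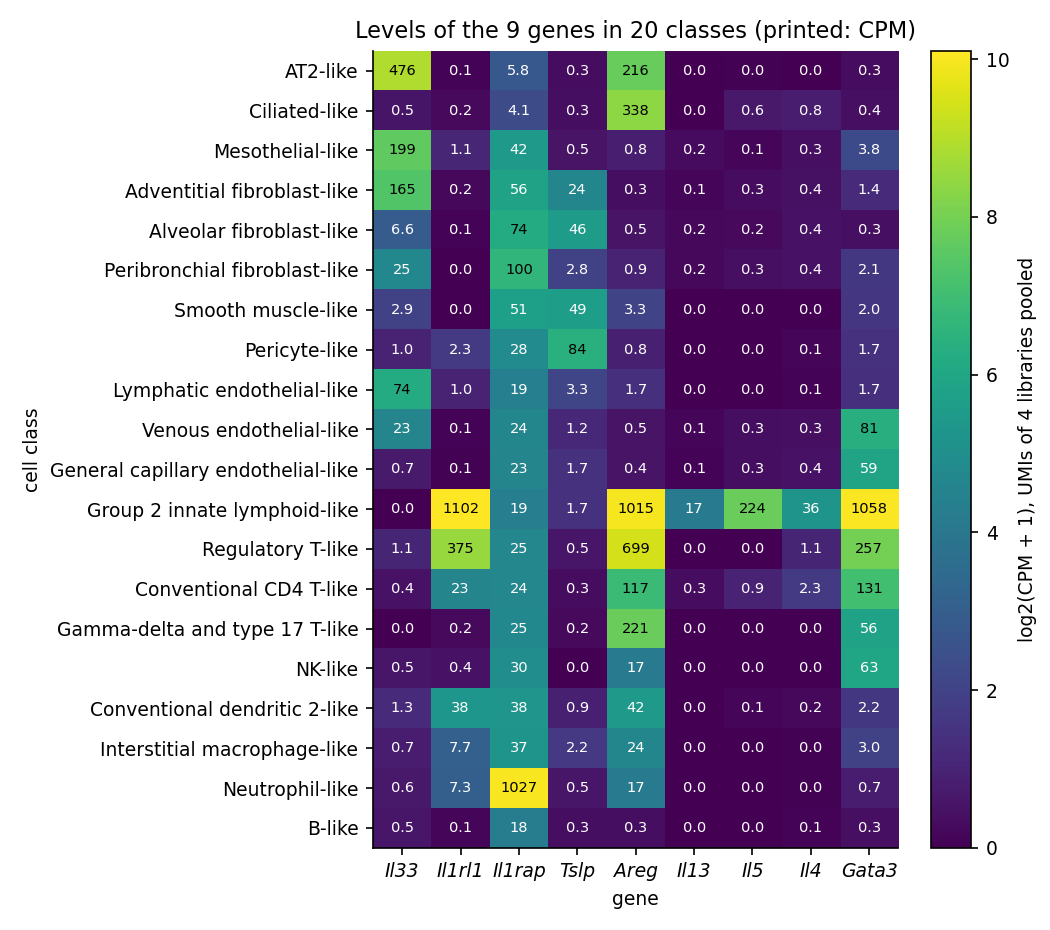
Levels of the 9 genes (columns) in 20 cell classes (rows), from UMIs pooled over the 4 libraries; colour is log2(CPM + 1) and the printed number is CPM. Il33 peaks in AT2-like cells (476), Il1rl1 in group 2 innate lymphoid-like cells (1102) and Il1rap in neutrophil-like cells (1027).

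Genes with a pattern like that of Il33 or Il1rl1 were ranked by Pearson correlation of log2(CPM + 1) over the 29 named classes, among 14598 genes. The classes share libraries, so this is a description without a p-value. Unnamed clusters were left out of the ranking. Among them was a cluster of 335 cells led by Scgb1a1 and Rtkn2, with Col4a3 and Col4a4 also among its leading genes. Il33 was closest to Col4a4 (r = 0.90) and Col4a3 (0.89), chains of basement membrane collagen, then Adamtsl1 (0.89), Prcd (0.88) and Prrg3 (0.85). Il1rl1 was closest to the chemokine receptor gene Ccr8 (0.89), then 9230102O04Rik (0.88), Pcsk1 (0.81), Gm13219 (0.81) and Cd200r1 (0.77).

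The study asked what glutaminase inhibition does to the aged lung, and here the question is how the 9 genes differed between BPTES and DMSO. Il33 in AT2-like cells stood at 557 and 546 CPM with BPTES and at 311 and 332 CPM with DMSO, on TMM-scaled library sizes. Both BPTES libraries were above both DMSO libraries, with means of 551 ± 7.50 and 322 ± 14.5 CPM (SD, n = 2 each). The log2 fold change was 0.78 with a standard error of 0.07, a 1.71-fold higher level with BPTES. This contrast was the reason for choosing the gene, so no p-value is given. Among all 13072 genes tested in AT2-like cells, the groups did not overlap for 48.3% and 0.145% were called at an adjusted p under 0.05.

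The amount of Il33 per cell differed, in cells whose make-up also differed between libraries, as given below. The cells numbered 393 and 404 with BPTES and 122 and 245 with DMSO, with 9467, 9806, 1735 and 3370 Il33 UMIs. Nearly all cells had a UMI at full depth (98.7, 98.0, 97.5 and 96.3%). Cells with the transcript held a median of 19 and 18 UMIs with BPTES and 11 in both DMSO libraries. With each cell thinned to 3000 UMIs, which left out 1 cell in each BPTES library, the share with Il33 was 68.6 and 66.0% against 55.7 and 51.8%. In B-like cells, which should lack it, the same share was 0 to 0.303%, with a median depth there of 11174 to 11996.5 UMIs against 43156 to 47392.5 UMIs in AT2-like cells before thinning.

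AT2-like cells clustered again on their own gave 14 groups, a division made after seeing the data. In the 9 with at least 5 cells in every library, Il33 was higher in both BPTES libraries in 6 and lower in 1, and the libraries overlapped in 2. The group led by Mfsd2a, Fdps and Hmgcs1, genes of lipid transport and sterol synthesis, had the highest values of the 9 with BPTES, 871 and 906 CPM against 328 and 428 CPM. The exception, a group of 88 cells, stood at 409 and 570.8 CPM with BPTES against 571.0 and 632 CPM, so that its nearest libraries were all but equal. The make-up of AT2-like cells also differed between libraries. The group led by Hspa1b, at 632 and 873 CPM with BPTES and 637 CPM in DMSO replicate 2, had 25 and 25 cells with BPTES and 0 and 3 with DMSO. The group led by Cxcl5, at 706 and 693 against 87.7 and 293 CPM, had 27 and 31 cells against 3 and 11. The group led by Cxcl1 and Egr1, at 418 and 434 against 296 and 339 CPM, had 48 and 39 of the 393 and 404 BPTES cells and 27 and 54 of the 122 and 245 DMSO cells. The part of this make-up in the whole difference was not tested beyond the values within groups.

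Several other measures moved with this contrast, and their part in it was not tested. Among CD45-negative cells the AT2-like share was 3.61 and 3.74% in the BPTES libraries, against 1.21 and 1.86% in the DMSO libraries. Neutrophil markers summed to 475 CPM in the AT2-like cells of DMSO replicate 1 and to 14.2 to 28.9 CPM in the other libraries. B markers there summed to 22.8 and 21.9 CPM with BPTES and 44.5 and 41.4 CPM with DMSO, and group 2 innate lymphoid markers to 169 and 163 against 226 and 196 CPM. Without DMSO replicate 1 the log2 fold change was 0.74. Of the 8 AT2 markers, 3 were higher in both BPTES libraries, 1 was lower and 4 overlapped, and Sftpc stood at 168258 and 165201 CPM with BPTES and 164598 and 168446 CPM with DMSO. Of 12 immediate early and heat shock genes, which respond to cell handling, 3 were higher, 3 lower and 6 overlapped. Without the barcodes holding T and B cell UMIs the log2 fold change was 0.73.

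**Figure D3:**
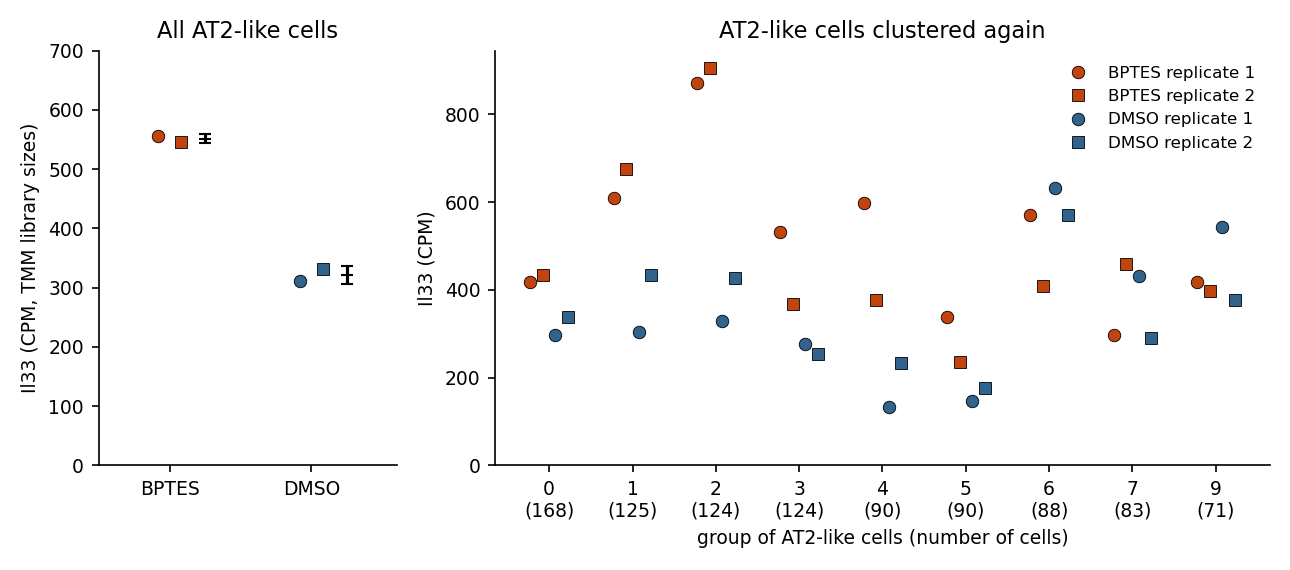
Left: Il33 in all AT2-like cells (CPM on TMM library sizes), one point per library, with mean and SD beside each group. Right: Il33 (CPM) in the 9 groups of AT2-like cells with at least 5 cells per library, with cell numbers in brackets; BPTES is higher in 6, lower in group 6, and overlaps DMSO in groups 7 and 9.

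Across the other classes few differences passed the test. Each of 24 classes was fitted on its own with edgeR's quasi-likelihood test, adjusted over all genes of the class. Besides Il33 in AT2-like cells, 80 of the 216 possible pairs of gene and class had enough counts. Of these, 1 was called (lower with BPTES) and 0 were called higher, where 0.1% of all 275457 tests were called, 0.0261% higher and 0.0741% lower. DESeq2 called 4 of the 80, and 24 had an unadjusted p under 0.05 (11.3% of all tests had). The groups did not overlap in 36 pairs (45.0%), 19 higher and 17 lower with BPTES, close to the 42.7% of all tests. The share of all genes called was largest in interstitial macrophage-like cells (0.405%), alveolar fibroblast-like cells (0.358%), neutrophil-like cells (0.346%) and lymphatic endothelial-like cells (0.338%). It was 0.193% in arterial, 0.147% in aerocyte and 0.0462% in general capillary endothelial-like cells, and 0.117% in pericyte-like cells. It was 0.0345% in non-classical and 0.0244% in classical monocyte-like cells, 0.0173% in conventional dendritic 2-like, 0.0167% in ciliated-like, 0.0107% in conventional CD4 T-like and 0.0102% in CD8 T-like cells. The share of genes whose groups did not overlap was 56.1% in alveolar fibroblast-like, 53% in general capillary endothelial-like, 49.1% in interstitial macrophage-like and 47.7% in classical monocyte-like cells. It was 41.9% in peribronchial fibroblast-like and 40.2% in aerocyte endothelial-like cells. The median log2 fold change of the 80 pairs was 0.02, where the median of all genes lay between -0.01 and 0.01 in every class.

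**Figure D4:**
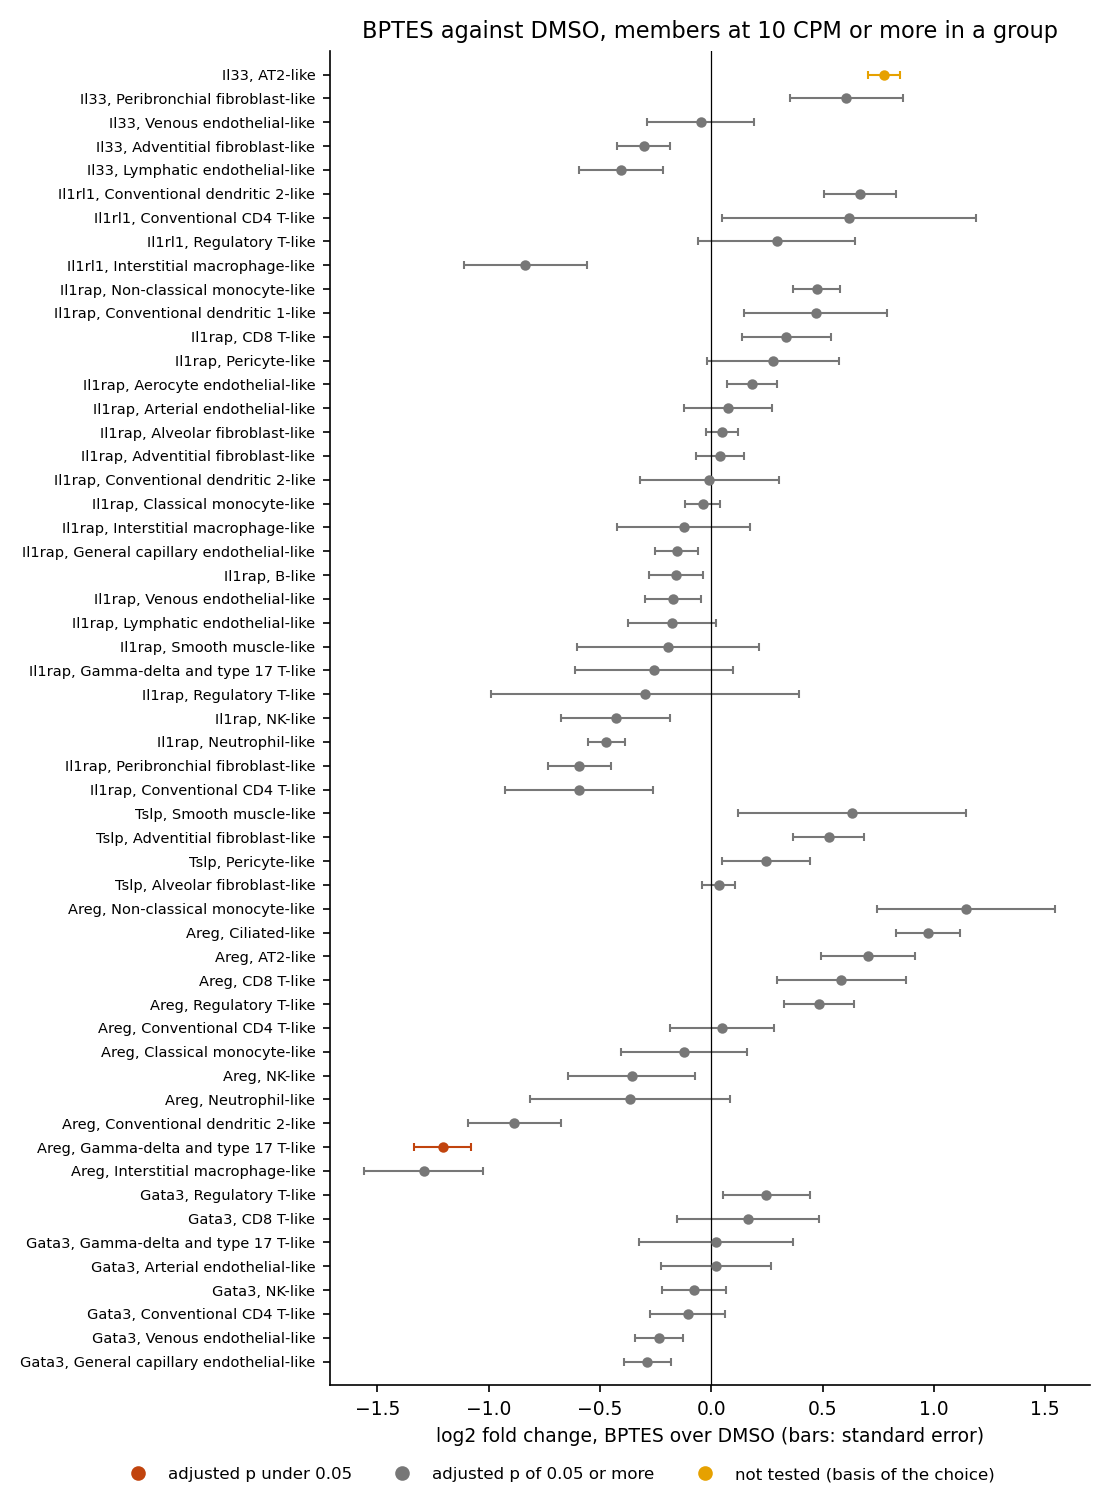
Log2 fold change, BPTES over DMSO, with its standard error, for the 55 pairs of gene and class that reached 10 CPM in a group. Among the tested pairs only Areg in gamma-delta and type 17 T-like cells has an adjusted p under 0.05; Il33 in AT2-like cells is drawn without a test.

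Il33 differed less clearly in its other sources. In adventitial fibroblast-like cells it stood at 156 and 138 CPM with BPTES and at 195 and 167 CPM with DMSO, a log2 fold change of -0.30 (edgeR adjusted p = 0.35), where 47.1% of genes in the class did not overlap. Of the 5 adventitial markers, 3 were lower in both BPTES libraries, 1 was higher and 1 overlapped. Of the 12 immediate early and heat shock genes, 5 were lower, 1 was higher and 6 overlapped. The part of these in the result was not tested. The cluster with more Il33 gave 170 of 286 and 314 of 535 cells with BPTES and 446 of 595 and 313 of 499 with DMSO. Inside it Il33 stood at 190 and 154 against 221 and 193 CPM, and in the other cluster the groups overlapped (105 and 104 against 90.8 and 127 CPM). With doublets kept the log2 fold change in the whole class was 0.02. In peribronchial fibroblast-like cells BPTES was above DMSO (30.0 and 30.6 against 14.3 and 24.99 CPM), with a log2 fold change of 0.61 (edgeR adjusted p = 0.434). It was 0.28 to 1.09 with 1 library left out. Lymphatic endothelial-like cells overlapped between groups (54.4 and 74.8 against 101 and 68.1 CPM). The log2 fold change there was -0.41, and -0.65 to -0.085 with 1 library left out. In alveolar fibroblast-like cells Il33 was low, at 6.36 and 9.44 CPM with BPTES and 5.06 and 5.57 CPM with DMSO, which did not overlap (log2 fold change 0.57, edgeR adjusted p = 0.152). Inside each of its clusters the groups overlapped (13.8 and 19.5 against 17.1 and 15.6 CPM in the higher one, 0.875 and 0.908 against 0.437 and 0.897 CPM in the lower one). The higher cluster gave 983 and 1107 of the 2531 and 2787 BPTES cells and 719 and 924 of the 2831 and 3139 DMSO cells. Without BPTES replicate 1 it was 0.84 (edgeR adjusted p = 0.037). Whether the fold change differed between AT2-like cells and these classes was not tested.

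Tslp in alveolar fibroblast-like cells, its main source, overlapped between groups, at 45.1 and 48.3 CPM with BPTES and 47.5 and 43.8 CPM with DMSO, with a log2 fold change of 0.03 and a standard error of 0.08. Its clusters leaned opposite ways, untested, with 36.5 and 36.6 against 46.7 and 39.8 CPM in the larger and 56.5 and 60.2 against 54.7 and 52.1 CPM in the smaller. In adventitial fibroblast-like cells it stood at 33.3 and 26.7 against 18.7 and 22.7 CPM, which did not overlap (log2 fold change 0.53, edgeR adjusted p = 0.294). In its cluster with more Tslp the groups overlapped (50.8 and 31.3 against 28.3 and 33.7 CPM), and in the other they did not (22.1 and 22.7 against 16.0 and 18.0 CPM). The richer cluster gave 116 of 286 and 221 of 535 cells with BPTES and 149 of 595 and 186 of 499 with DMSO. Alveolar fibroblast markers in the whole class summed to 3592 and 3713 against 2569 and 3424 CPM, and the part of these in the result was not tested. Without DMSO replicate 2 that difference was 0.67 (edgeR adjusted p = 0.0302).

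Il1rap in neutrophil-like cells came close to the threshold. It stood at 911 and 812 CPM with BPTES and at 1171 and 1219 CPM with DMSO, so that both BPTES libraries were lower. The log2 fold change was -0.47 with a standard error of 0.08 (edgeR adjusted p = 0.0622). DESeq2 called it (adjusted p = 0.00029), and so did edgeR with doublets kept (adjusted p = 0.0499). With 1 library left out the log2 fold change was -0.56 to -0.39. Neutrophil markers in these cells summed to 78972 and 80784 CPM with BPTES and 105247 and 110767 CPM with DMSO. Of the 6 markers, 2 (S100a8 and S100a9) were lower in both BPTES libraries, 1 (Cxcr2) was higher and 3 overlapped. S100a9 alone stood at 41098 and 41183 against 56529 and 60226 CPM. The part of these markers in the result was not tested.

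Il1rl1 was not called in any class by edgeR's main design, with all libraries, the filter on low counts and no replicate block, where 3 of 7 tested classes had an unadjusted p under 0.05 (11.3% of all tests had), nor in DESeq2. Regulatory T-like cells had 489 and 383 CPM with BPTES and 534 and 187 CPM with DMSO, a wide overlap. The log2 fold change of 0.29 became -0.28 without DMSO replicate 2, and 1.21 with an edgeR adjusted p of 0.00445 without DMSO replicate 1, so single libraries set its direction. In conventional dendritic 2-like cells the gene stood at 49.5 and 39.7 against 27.0 and 29.2 CPM (log2 fold change 0.67, edgeR adjusted p = 0.28). CD8 T-like cells had few UMIs of it, at 12.2 and 6.41 CPM with BPTES and 1.34 and 0 CPM with DMSO. These were 21 UMIs in 1 cell, 14 in 3 cells, 3 in 1 cell and 0. The fitted log2 fold change was 4.08 (edgeR adjusted p = 0.317), the largest among the 80 pairs, and with a library at 0 it depends on the prior count. Without a filter on low counts it was called (4.04, edgeR adjusted p = 1.47e-05).

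Areg gave the single call, in gamma-delta and type 17 T-like cells, lymphocytes that make IL-17 at barrier surfaces. The level was 159 and 145 CPM with BPTES and 362 and 341 CPM with DMSO, a log2 fold change of -1.21 with a standard error of 0.13 (edgeR adjusted p = 0.0208). In this class 0.0596% of 8394 genes were called. The class counted 99, 118, 57 and 62 cells, and 24.6 to 28.1% of them had an Areg UMI in each library.

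A few cells held much of the Areg in this class. The 5 highest cells of each library held 70.0 and 51.7% of the Areg UMIs with BPTES and 88.5 and 82.9% with DMSO, and single cells reached 137 and 168 UMIs in the DMSO libraries. Without the Areg UMIs of those cells the levels were 48.3 and 68.4 CPM with BPTES and 40.6 and 57.2 CPM with DMSO, which overlap. These cells were chosen by their Areg UMIs and are a larger part of the smaller DMSO libraries, which lowers the DMSO levels more, so the values describe how uneven the counts are and are no test of the difference. The share of cells with Areg after thinning to 3000 UMIs was 17.9 and 14.4% against 21.1 and 22.8%, where B-like cells had 0 to 0.151%. For that share the exact two-sided permutation p was 0.333, the smallest that 2 libraries against 2 allow.

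Other genes moved in the same class. Nfkb1, which encodes a subunit of NF-κB downstream of the IL-33 receptor, stood at 1396 and 1346 CPM with BPTES and 2107 and 2005 CPM with DMSO, a log2 fold change of -0.58 (edgeR adjusted p = 0.0345). Il17a, a marker that defines the class, stood at 960 and 818 against 1140 and 1513 CPM. Of the 12 immediate early and heat shock genes, 5 were lower in both BPTES libraries, 1 was higher and 6 overlapped, where 38.9% of all genes of the class did not overlap. Their sum was 5661 and 5654 against 6831 and 6921 CPM. The part of these genes in the Areg call was not tested.

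**Figure D5:**
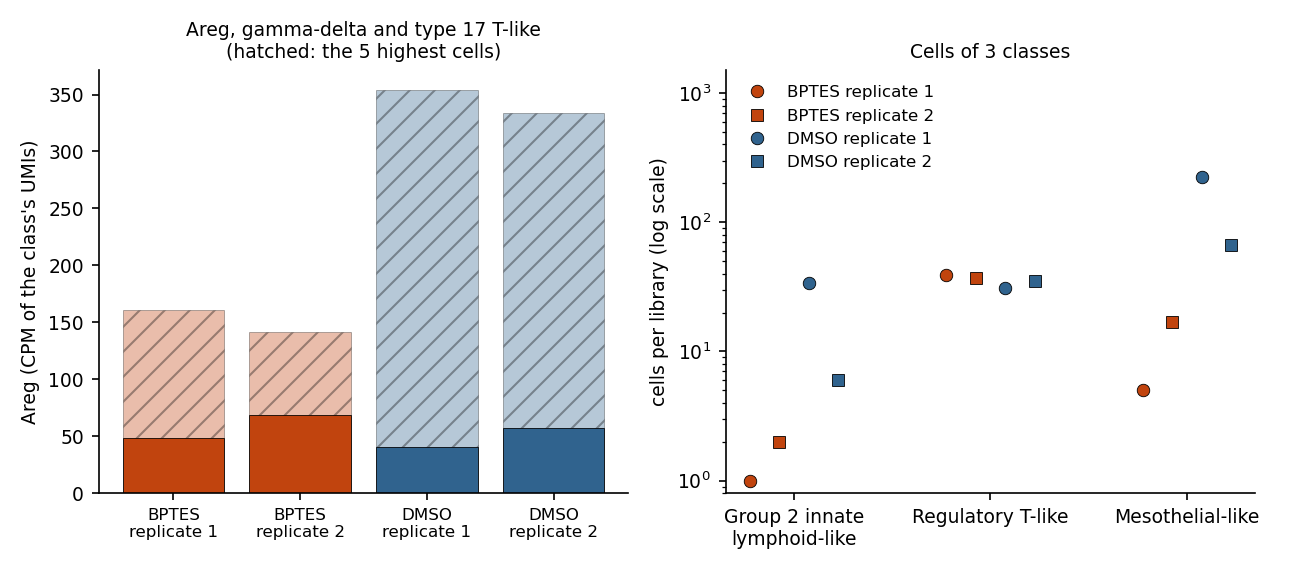
Left: Areg in gamma-delta and type 17 T-like cells (CPM) per library, with the UMIs of the 5 highest cells hatched; the remainder is 40.6 to 68.4 CPM in all libraries. Right: cells per library (log axis) in 3 classes; DMSO replicate 1 has 34 group 2 innate lymphoid-like and 224 mesothelial-like cells.

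Elsewhere Areg leaned in both directions without passing edgeR's threshold. In ciliated-like cells it stood at 464 and 394 CPM with BPTES against 182 and 250 CPM with DMSO (log2 fold change 0.97, standard error 0.14, edgeR adjusted p = 0.192). It was called there by DESeq2 and by edgeR when any 1 of the 4 libraries was left out (adjusted p of 0.00186 to 0.0289). Secretory airway markers in these cells summed to 3217 and 3850 against 2241 and 2734 CPM, and of the 6 ciliated markers 3 were lower in both BPTES libraries, 1 was higher and 2 overlapped. The part of these in the result was not tested. In AT2-like cells the values were 222 and 266 against 108 and 187 CPM (0.71, edgeR adjusted p = 0.207), called by edgeR without a filter on low counts (0.00424). With 1 library left out the log2 fold change there was 0.39 to 1.18. Interstitial macrophage-like cells had 11.7 and 20.6 against 36.7 and 42.7 CPM, a log2 fold change of -1.29 (edgeR adjusted p = 0.0992), which DESeq2 called. EdgeR called it at clustering resolution 2 (0.0466) and with the members kept in clustering (0.0487), and with doublets kept it was -0.24 (0.664). In alveolar fibroblast-like cells Areg was under 1 CPM throughout (0.978 and 0.609 against 0.134 and 0.169 CPM), a log2 fold change of 2.36 (edgeR adjusted p = 0.0661), called without DMSO replicate 2 (2.54, adjusted p = 0.0488). AT2 markers in these fibroblasts were higher with BPTES too (293 and 222 against 111 and 180 CPM). Areg was likewise 0.559 and 0.659 against 0.190 and 0.395 CPM in general capillary endothelial-like cells, and the part of free RNA in these low values was not tested. Regulatory T-like cells had 929 and 765 against 643 and 570 CPM, a log2 fold change of 0.48 (edgeR adjusted p = 0.851). In that class edgeR called 0 of 6211 genes, DESeq2 also 0, and 338 had an unadjusted p under 0.05.

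Gata3 passed no test in DESeq2, nor in edgeR with all libraries and the filter on low counts, where 2 of its 14 tested classes had an unadjusted p under 0.05. Regulatory T-like cells had 270 and 309 CPM with BPTES and 223 and 264 CPM with DMSO, a log2 fold change of 0.25 (edgeR adjusted p = 0.91). Conventional CD4 T-like cells overlapped, at 113 and 149 against 160 and 123 CPM. In general capillary endothelial-like cells it was 57.3 and 45.5 against 63.8 and 62.2 CPM, with a log2 fold change of -0.29 (edgeR adjusted p = 0.21). EdgeR called it without the filter (-0.29, adjusted p = 0.0156). With 1 library left out the log2 fold change was -0.47 to -0.14. Il13 had too few counts for a test in any class, and Il5 and Il4 were tested in 2 classes each with no call in DESeq2 or in edgeR with the filter, although 1 class of each had an unadjusted p under 0.05. Without the filter edgeR called Il5 in general capillary endothelial-like cells (-1.98, adjusted p = 0.0496), where it was under 1 CPM.

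The receivers were few, and their numbers differed between libraries. Group 2 innate lymphoid-like cells numbered 1 and 2 with BPTES and 34 and 6 with DMSO, or 0.0236 and 0.0426% of CD45-positive cells against 0.787 and 0.105%. Exact binomial 95% intervals, which cover counting error only, were 0.000597 to 0.131%, 0.00516 to 0.154%, 0.545 to 1.10% and 0.0386 to 0.229%. With doublets kept the class instead numbered 12 and 17 cells with BPTES and 34 and 19 with DMSO. In the main setting 34 of the 43 cells came from DMSO replicate 1, which also held most mesothelial-like cells. The part of tissue sampling in this difference was not tested. The type 2 cytokine UMIs over all cells were also most numerous in DMSO replicate 1. BPTES replicates 1 and 2 and DMSO replicates 1 and 2 held 23, 28, 200 and 66 UMIs of Il5. They held 7, 15, 80 and 20 of Il13 and 58, 94, 241 and 134 of Il4. Most UMIs of each of these genes lay outside the group 2 innate lymphoid-like cells, as given above.

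Regulatory T-like cells stood at 0.919 and 0.788% of CD45-positive cells with BPTES and 0.717 and 0.613% with DMSO. Marker-gated basophils made up 0.0236 and 0% against 0.0925 and 0.0350%, where the count of 0 allows a share of up to 0.0639%. The single BPTES barcode was a conventional dendritic 1-like cell with 3 markers and 112868 UMIs. The barcodes with 7 or 8 markers were 4 in DMSO replicate 1 and 1 in DMSO replicate 2. For each of these 3 receivers the exact two-sided permutation p over libraries was 0.333, which is the smallest this design can give.

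The 44 other genes of the pathway were read from the same fits. Of 1056 possible pairs of gene and class 524 were tested, over 39 of the genes. Of these pairs 0 were called higher and 1 lower with BPTES by edgeR, against 9 by DESeq2, and 73 had an unadjusted p under 0.05, where 0.1% of all tests were called and 11.3% had such a p. Groups did not overlap in 218 pairs (41.6%, against 42.7% of all tests), 80 higher and 138 lower with BPTES, where all tests gave 21.2% higher and 21.5% lower. The median log2 fold change was -0.05. The call was Nfkb1 in gamma-delta and type 17 T-like cells, given above, and it belongs to the 8 genes of the IL-33 receptor signalling chain, whose median log2 fold change was -0.05 over 187 pairs, with 24 higher and 58 lower without overlap. The median was -0.09 over 72 pairs of other alarmins and their receptors, -0.07 over 167 pairs of type 2 cytokine receptors and their signalling, 0.10 over 54 pairs of type 2 response genes, and -0.03 over 44 pairs of effector cell receptors and growth factors.

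The highest pathway genes differed in level between these classes. In group 2 innate lymphoid-like cells Nfkb1 reached 8084 CPM, Il7r (part of the TSLP receptor) 1274 CPM and Csf2, which encodes the growth factor GM-CSF, 977 CPM (0 to 2764 over the libraries). In regulatory T-like cells Nfkb1 had 1489 CPM and Il7r 934 CPM. AT2-like cells had 127 CPM of Nfkb1, 2.11 CPM of Il7r and 10.4 CPM of Csf2, and alveolar fibroblast-like cells had 591 CPM of Nfkb1. Adventitial fibroblast-like cells stood out among the sources for Ccl11, the eosinophil attractant eotaxin, at 303 CPM (247 to 325), where alveolar fibroblast-like cells had 9.15 CPM. Jak1, a kinase of the type 2 cytokine receptors, was at 591 and 640 CPM in these fibroblast classes and at 118 CPM in AT2-like cells.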

How the data were processed

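The deposited matrices hold whole UMI counts per gene and barcode, which the authors made with Cell Ranger 8.0.1 on mm10, per the submitters' processing notes. The strand setting is not given in the sources used here. Barcodes with at least 500 genes, 1000 UMIs and at most 10% mitochondrial UMIs were kept, and those with the highest simulated-doublet scores (0.4% per 1000 barcodes) were removed. Cells were clustered on 2000 variable genes (igraph 0.11.9, resolution 1) without the 9 genes and the 44 pathway genes, and named from marker lists needing 3 detected markers. Counts were summed per class and library. Classes with 50 cells in every library (20 for receivers) were fitted with edgeR 4.0.16 (TMM, quasi-likelihood, Benjamini-Hochberg over all genes of a class, called at an adjusted p of 0.05 or less). DESeq2 1.42.0 was an alternative. On simulated counts the AT2 fit recovered 72 of 98 genes changed 2-fold and the regulatory T fit 30 of 96. Intervals cover counting error only. All 9 members were described; of their 80 tested pairs, those not named are given by counts and in the plot of fold changes where they reached 10 CPM. Pathway genes were named where called or highest in their list. Members and lists were chosen with earlier results of these data known. The handling genes, the groups within AT2-like cells and the values without the 5 highest cells were chosen after seeing the data.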

Additional observations from a re-analysis of the deposited data

Results flagged for a closer look

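Some of the 9 genes were higher in both BPTES libraries in one class and lower in both in another. Whether these fold changes differ between classes was not tested, and 42.7% of all tests had groups that did not overlap. All values are log2 fold changes, BPTES over DMSO, of pairs that reached a mean of 10 CPM in a group. Il33 had 0.78 in AT2-like and 0.61 in peribronchial fibroblast-like cells, but -0.30 in adventitial fibroblast-like cells, which was 0.02 with doublets kept. Il1rl1 had 0.67 in conventional dendritic 2-like and -0.83 in interstitial macrophage-like cells, where it turned to 0.40 with doublets kept.

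Il1rap had 0.18 in aerocyte endothelial-like, 0.34 in CD8 T-like and 0.47 in non-classical monocyte-like cells. It had -0.47 in neutrophil-like, -0.59 in peribronchial fibroblast-like, -0.17 in venous endothelial-like, -0.16 in B-like and -0.16 in general capillary endothelial-like cells.

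Areg had 0.71 in AT2-like, 0.97 in ciliated-like, 1.14 in non-classical monocyte-like, 0.58 in CD8 T-like and 0.48 in regulatory T-like cells. The value in CD8 T-like cells turned in 5 of 9 other settings, down to -1.62. That in non-classical monocyte-like cells was 0.70 to 2.41 with 1 library left out, and was called without DMSO replicate 2 (2.41, edgeR adjusted p = 0.0208) and without a filter on low counts (2.25e-09). It had -1.21 in gamma-delta and type 17 T-like, -1.29 in interstitial macrophage-like and -0.88 in conventional dendritic 2-like cells. Gata3 had 0.25 in regulatory T-like cells, -0.29 in general capillary endothelial-like and -0.23 in venous endothelial-like cells.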

How the results depend on the processing

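With 2 libraries a group, small differences and rare cells limit every result. Il33 in AT2-like cells kept its direction, with a log2 fold change of 0.73 to 0.80 under the other settings and 0.74 to 0.83 with 1 library left out. Its share after thinning, higher by 13.5 percentage points with BPTES, was higher by 1.44 unthinned and 10.1 with doublets kept. The single call among the 9 genes became 4 with DESeq2, 17 without a filter on low counts, 2 each at resolution 2, with the members kept in clustering, at a mitochondrial limit of 5% and with doublets kept, and 3 to 7 with 1 library left out. The single pathway call became 9 with DESeq2, 46 without a filter, 2 with the members kept, 3 with doublets kept and 7 to 14 with 1 library left out. With the replicate number as a block the calls were 5 (Areg in gamma-delta and type 17 T-like, AT2-like, interstitial macrophage-like and alveolar fibroblast-like cells, Il1rl1 in CD8 T-like cells) and 9. Same-numbered libraries correlated by -0.196 to 0.166 over 24 classes. The labels do not say whether the numbers pair the libraries, and these correlations, with 2 libraries a group, cannot decide it. The difference in group 2 innate lymphoid-like share, -0.413 percentage points, was -0.75 to -0.072 with 1 library left out. It was 5.60 for barcodes with 2 markers, 3.69 with 3 and 1.97 with 3 in any cluster, gates that took 16.2% or more of CD45-positive cells.

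Directions turned as follows, in log2 fold change, and the cause was not tested. With doublets kept, Il1rap was -0.15 in adventitial fibroblast-like, 0.070 in interstitial macrophage-like and -0.089 in pericyte-like cells, Il33 0.025 in adventitial fibroblast-like and Il1rl1 0.40 in interstitial macrophage-like cells. In alveolar fibroblast-like cells Il1rap was -0.023 at resolution 0.5, and Tslp was -0.15 at resolution 0.5, -0.0023 at resolution 2, -0.030 with the members kept and -0.019 with doublets kept. Gata3 in arterial endothelial-like cells was -0.13 at resolution 0.5, -0.30 at resolution 2, -0.31 with the members kept, -0.27 and -0.0052 at mitochondrial limits of 5 and 20%, and -0.28 with doublets kept. Areg in CD8 T-like cells was -0.77 at resolution 2, -1.03 with the members kept, -1.62 and -1.61 at those limits, and -0.92 with doublets kept. Areg in conventional CD4 T-like cells was -0.036 with the members kept and -0.080 with doublets kept. Areg in gamma-delta and type 17 T-like cells was 0.26 without the 5 highest cells, which are a larger part of the smaller DMSO libraries and were chosen by the value compared, so this turn is partly built in.

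With 1 library left out, Il1rap ranged from -0.062 to 0.14 in adventitial fibroblast-like, -0.0046 to 0.11 in alveolar fibroblast-like, -0.95 to 0.10 in conventional CD4 T-like, -0.58 to 0.39 in conventional dendritic 2-like, -0.82 to 0.12 in gamma-delta and type 17 T-like, -0.59 to 0.42 in interstitial macrophage-like, -0.14 to 0.70 in pericyte-like, -1.71 to 0.69 in regulatory T-like and -0.83 to 0.22 in smooth muscle-like cells. Gata3 ranged from -0.29 to 0.40 in arterial endothelial-like, -0.32 to 0.74 in CD8 T-like, -0.30 to 0.085 in conventional CD4 T-like and -0.51 to 0.89 in gamma-delta and type 17 T-like cells. Areg ranged from -0.53 to 0.48 in classical monocyte-like, -0.35 to 0.49 in conventional CD4 T-like and -0.94 to 0.69 in neutrophil-like cells. Il1rl1 ranged from -0.80 to 1.40 in conventional CD4 T-like and -0.28 to 1.21 in regulatory T-like cells, Tslp from -0.022 to 0.10 in alveolar fibroblast-like and -0.24 to 1.17 in smooth muscle-like cells, and Il33 from -0.45 to 0.28 in venous endothelial-like cells. Basophil shares were not computed in 6 of the other cell-level settings, where no cluster earned the name and the marker gate was not applied.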
